A study of Homo sapiens with 5 samples.

Results

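Gene expression in tumours from mice fed food without tryptophan and niacin was compared with that in tumours from mice fed food without methionine. The tumours grew from HT-29, an established human colon cancer cell line, implanted under the skin of female NOD SCID mice that were 5 weeks old. NOD SCID mice lack T and B cells, so the tumours grew in a host without adaptive immunity. There was 1 library from the tryptophan/niacin-free food and 2 libraries, replicates 1 and 2, from the methionine-free food, out of 5 libraries over 4 foods. The other 2 libraries came from normal food and from the combined omission, a food lacking all of these nutrients. They bear titles of another style, enter no test here, and are given only as context. Feeding is given as 2 weeks in one place of the series' design text and as a period of 3 weeks in another. Neither food compared here was complete: the methionine-free animals ate tryptophan and niacin, and the tryptophan/niacin-free animals ate methionine. A difference between the diets therefore has no direction relative to a full diet. The genes were all those with a mean of at least 10 counts over the 3 libraries, which were 8953 of 26364 listed and held 96.9% of the counts. Of these, 275 genes had a mean between 10 and 11 counts, and 258 genes lay just below the minimum, between 9 and 10.

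Methionine is an essential amino acid that cells convert to S-adenosylmethionine, the methyl donor of most methyltransferases. Tryptophan is an essential amino acid that can be broken down through kynurenine toward nicotinamide adenine dinucleotide (NAD). Niacin is a vitamin from which NAD is also made. Both pathways meet at NNMT, the enzyme that uses S-adenosylmethionine to methylate nicotinamide. Lack of any essential amino acid can activate the kinase GCN2 and the transcription factor ATF4, which induces amino acid synthesis and transport, and can lower mTORC1 signalling.

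The 3 libraries were shallow, with 613604 counts in the tryptophan/niacin-free library and 553502 and 678618 in methionine-free replicates 1 and 2. A single count equalled 1.63, 1.81 and 1.47 CPM (counts scaled to a library total of 1000000) in that order. The labels do not say whether the methionine-free pair came from separate mice, so p-values rest on a spread between samples that could be technical alone. Replicates 1 and 2 differed from each other by at least 2-fold, beyond counting error, in 574 genes. The tryptophan/niacin-free library differed in that way from replicate 1 in 226 genes and from replicate 2 in 931. The median absolute log2 difference was 0.263 against replicate 1, 0.429 against replicate 2 and 0.364 between the replicates. The lone library thus lay closer to replicate 1 than the replicates lay to each other.

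The differences between libraries ran along transcript length. Genes were put into 4 equal groups by length. In the group with the shortest transcripts (median 1800 bases), the median log2 difference of the tryptophan/niacin-free library was −0.14 against replicate 1 and −0.49 against replicate 2. In the group with the longest transcripts (median 7209 bases) it was 0.09 and 0.46. Between replicates 2 and 1 the same medians were 0.35 for the shortest and −0.36 for the longest genes, with the opposite order. The tryptophan/niacin-free library showed no such slope against the normal library, where the medians were 0.05 and 0.04. A length-corrected median is therefore given beside the gene groups described with values below, and the part of the gradient in the results was not tested beyond that correction. Where values are called length-corrected, a smooth curve of each library against transcript length was removed.

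**Figure D1:**
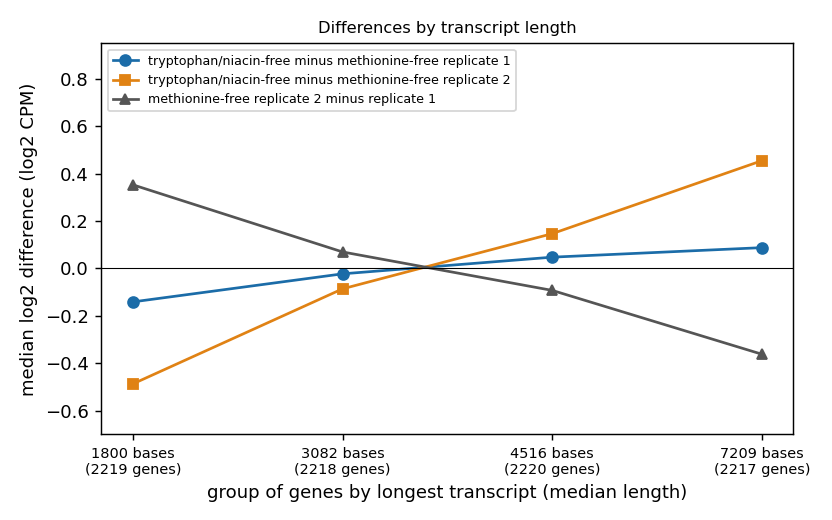
Median log2 difference (vertical axis, log2 CPM) in 4 equal groups of genes by their longest transcript (horizontal axis, median length in bases). The lines for the tryptophan/niacin-free library climb from −0.14 to 0.09 against replicate 1 and from −0.49 to 0.46 against replicate 2, and the line between the methionine-free replicates runs the other way.

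No gene passed the test. By edgeR's quasi-likelihood test with Benjamini-Hochberg adjustment over 8953 genes, 0 genes (0.0%) were higher and 0 (0.0%) were lower without tryptophan and niacin at an adjusted p of 0.05. At an unadjusted p below 0.05 there were 249 higher and 210 lower genes, 5.13% of those tested, and the smallest adjusted p was 0.252. DESeq2 and limma-voom also called 0, with 9 higher and 36 lower, and 274 higher and 147 lower, at the unadjusted level. The methionine-free pair gave the fit its 1 residual degree of freedom, and the fit assumed that the lone library varied as that pair did. The genes below are therefore described by their size. A gene was beyond the size rule if its scaled log2 CPM was at least 1 (2-fold) above, or below, each methionine-free library, with a 95% exact interval of each count ratio excluding 1. This rule covers counting error only.

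Beyond the rule against both methionine-free libraries lay 31 higher genes (0.346% of those tested) and 52 lower genes (0.581%). Against replicate 1 alone there were 106 higher (1.18%) and 120 lower (1.34%), and against replicate 2 alone 545 higher (6.09%) and 386 lower (4.31%). The split depended on scaling: with library totals in place of TMM factors it was 57 higher and 42 lower. The median log2 difference of all genes was then 0.034 against replicate 1 and 0.14 against replicate 2. With no demand on size, 2991 genes (33.4%) lay above both methionine-free libraries, 3171 (35.4%) lay below both, and 2791 lay between them. These shares, and those beyond the rule, are the background for the counts of each list below. The higher genes had long transcripts, with a median of 6833 bases against 3770 for all genes tested, and the lower genes short ones, with a median of 2094. After length correction 23 genes lay beyond the rule on the higher side, 10 of them among the 31, and 38 on the lower side, 28 of them among the 52. In 26 of the 31 higher genes the tryptophan/niacin-free library was also above the normal and combined-omission libraries, and in 48 of the 52 lower genes it was below all 4 others. These genes were chosen by an extreme value of that same library, so the 26 and 48 are no independent support. They were not set against the share over all genes.

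**Figure D2:**
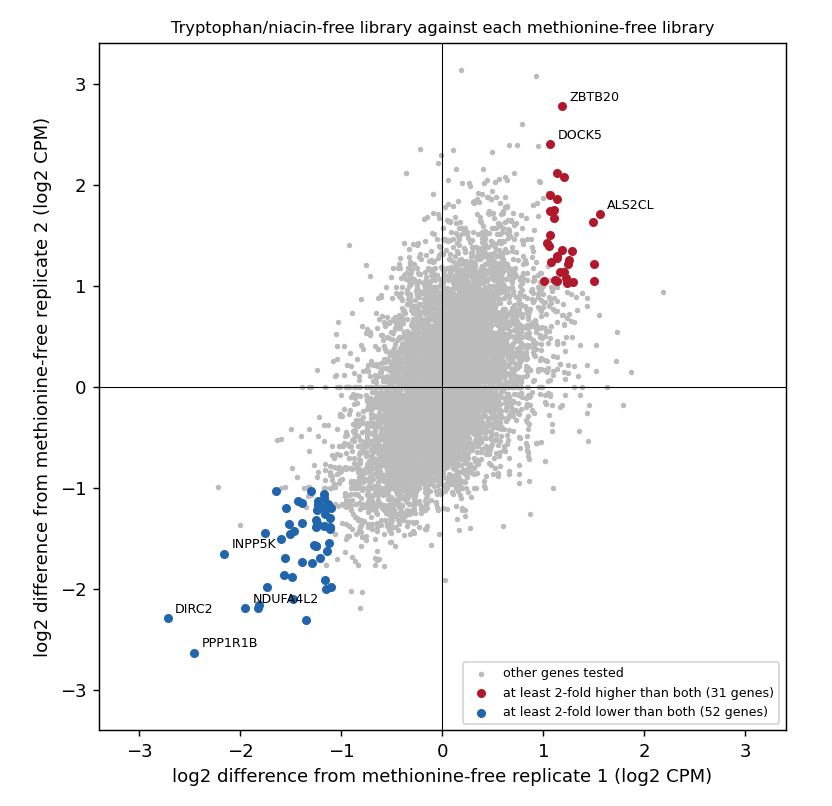
Log2 difference (log2 CPM) of the tryptophan/niacin-free library from methionine-free replicate 1 (horizontal) and replicate 2 (vertical), with 1 point per gene tested. The 31 higher and 52 lower genes beyond the size rule are coloured, and the cloud is taller than wide because replicate 2 stood farther from the lone library.

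Among the higher genes, those with a large smaller difference included ALS2CL and GIT2. ALS2CL, a relative of the guanine nucleotide exchange factor alsin, stood at 50.5 CPM without tryptophan and niacin and at 14.5 and 11.8 CPM in methionine-free replicates 1 and 2. GIT2, an activator of ARF GTPase hydrolysis, stood at 63.6 against 23.5 and 20.6 CPM. In both of these genes the methionine-free libraries lay close together and the lone library stood apart. The chemokine CX3CL1 (fractalkine) followed with 35.9 against 12.6 and 11.8 CPM, and HDAC4, a class II histone deacetylase, with 53.8 against 16.3 and 19.2 CPM. SGK1, a kinase induced by serum and glucocorticoids, stood at 47.3 against 18.1 and 17.7 CPM. KIAA0586, a ciliary protein, stood at 31.0 against 10.8 and 10.3 CPM, and KBTBD6, a ubiquitin ligase adaptor, at 29.3 against the same levels. For ZBTB20, a zinc finger repressor, the methionine-free libraries disagreed, with 42.4 CPM against 16.3 and 2.95. ALDH5A1, a mitochondrial aldehyde dehydrogenase, was alike, with 32.6 against 12.6 and 4.42 CPM. Of the genes in this paragraph, ALS2CL and GIT2 stayed beyond the rule after length correction, and the others did not.

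CAV1, PTRF, FLNA and AKAP12 were also among the 31. CAV1, PTRF and FLNA were picked out after their values were seen and belong to no list used here. CAV1, the coat protein of caveolae (flask-shaped pits of the plasma membrane), stood at 40.7 CPM against 16.3 and 16.2, and PTRF, the cavin that completes the coat, at 196 against 65.0 and 84.0 CPM. FLNA, the actin cross-linker filamin A, stood at 1327 CPM against 612 and 421, on 814, 339 and 286 counts, the deepest value among the higher genes. AKAP12, a scaffold of protein kinase A beneath the membrane, stood at 108 against 42.5 and 20.6 CPM. It had the smallest p of the higher genes (log2 fold change 1.68, SE 0.447, adjusted p = 0.355). Its level on normal food was higher still, at 147 CPM. CAV1, PTRF and AKAP12 remained beyond the rule after length correction, and FLNA did not.

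The other smallest p-values on the higher side belonged to DOCK5, DST, MAP3K9, ZBTB20 and TROAP, with adjusted p from 0.355 to 0.543. In each of them replicate 2 was the lower of the pair. DOCK5, an activator of the GTPase RAC, stood at 101 CPM against 45.2 and 14.7, and DST, a giant linker of the cytoskeleton, at 337 against 155 and 79.6 CPM. MAP3K9, a kinase upstream of JNK, stood at 66.8 CPM against 32.5 in replicate 1 and 4.42 in replicate 2. TROAP, a spindle protein, stood at 104 against 49.7 and 20.6 CPM. On the scaled log2 CPM of the rule MAP3K9 and TROAP lay 0.93 and 0.96 above replicate 1, less than 1, and so were not beyond it.

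Among the lower genes, the smallest p overall belonged to NDUFA4L2, a hypoxia-induced relative of a respiratory chain subunit. It stood at 19.6 CPM without tryptophan and niacin and at 83.1 and 91.4 CPM in the methionine-free libraries, on 12, 46 and 62 counts (log2 fold change −2.25, SE 0.536, adjusted p = 0.252). PPP1R1B (DARPP-32, a protein phosphatase inhibitor) had 1 count against 13 and 17, and DIRC2, a lysosomal membrane transporter, 1 against 16 and 13. With so few counts their ratios are loosely bounded: for PPP1R1B the 95% exact interval of the ratio was 0.0016 to 0.449 against replicate 1 and 0.0014 to 0.374 against replicate 2. The secreted peptide NMB had 4 counts against 17 and 25, the Notch glycosyltransferase POGLUT1 3 against 13 and 18, and the minor spliceosome protein SNRNP25 3 against 14 and 21. The lipid phosphatase INPP5K had 4 against 22 and 17, and the translation factor EEF1A2 4 against 14 and 20. CASP6, an executioner caspase, stood at 9.78 CPM against 34.3 and 35.4. LYRM7, an assembly factor of respiratory complex III, stood at 8.15 against 30.7 and 26.5 CPM. The hedgehog ligand IHH, made by differentiating intestinal epithelium, stood at 13.0 against 41.6 and 51.6 CPM. The lower genes of this paragraph all stayed beyond the rule after length correction. PEX2, a peroxisome assembly protein, also had a small p (29.3 against 65.0 and 113 CPM, adjusted p = 0.457).

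**Figure D3:**
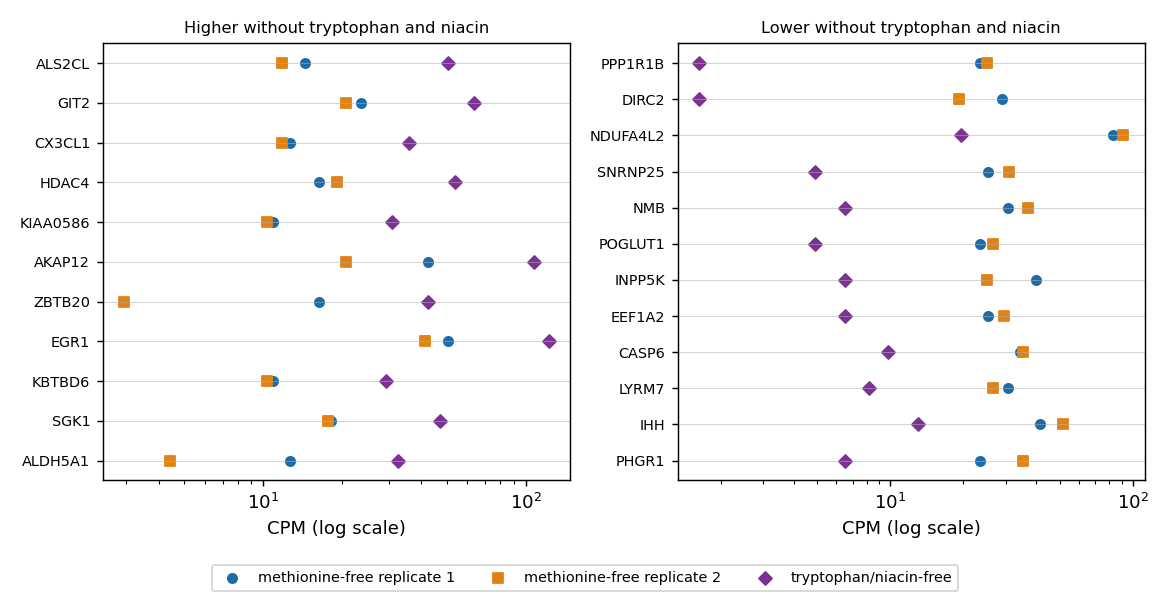
CPM (log axis) of 11 higher and 12 lower genes with a large smaller difference, with 1 marker per library. The tryptophan/niacin-free marker stands to the right of both methionine-free markers on the left panel (ALS2CL at 50.5 CPM against 14.5 and 11.8) and to the left on the right panel (NDUFA4L2 at 19.6 against 83.1 and 91.4).

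Genes induced by low oxygen were low without tryptophan and niacin. Of 27 listed genes of hypoxia-induced stress and vascular growth, 21 had enough counts, 0 passed edgeR's test, and 4 lay beyond the size rule on the lower side and 0 on the higher. In all, 16 of the 21 lay below both methionine-free libraries and 1, ZNF395, above both, against 35.4% and 33.4% of all genes. The median log2 difference was −0.23 against replicate 1 and −0.23 against replicate 2, where that of all genes was −0.00557 and −0.00398. The methionine-free replicates themselves differed by a median of −0.03 over this list, so the gap did not rest on either of them. The median over both, −0.23, was −0.14 with total-count scaling and −0.32 after length correction.

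The 4 genes beyond the rule were EGLN3, BNIP3L, NDUFA4L2 and NDRG1. EGLN3, a prolyl hydroxylase that marks hypoxia-inducible factor for destruction and is itself induced by it, stood at 14.7 CPM against 56.0 and 41.3 (log2 fold change −1.80, SE 0.604, adjusted p = 0.672). BNIP3L, a receptor for the removal of mitochondria, stood at 13.0 CPM against 43.4 and 30.9. NDRG1, a stress protein, stood at 319 CPM against 770 and 591, on 196, 426 and 401 counts, so counting error there was small (log2 fold change −1.18, SE 0.499, adjusted p = 0.955). These genes were lowest of all 5 libraries in the tryptophan/niacin-free tumour. On normal food EGLN3 stood at 111, BNIP3L at 104, NDUFA4L2 at 167 and NDRG1 at 3339 CPM, and in the combined omission at 80.7, 62.2, 141 and 2357 CPM. Normal and combined-omission libraries carry another title style, so diet and handling cannot be told apart in that contrast. The combined omission lacked tryptophan and niacin too, and its higher levels fall under the same limit. In an additive fit over all 5 libraries the log2 fold change of NDRG1 was 0.66, of the other sign.

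The remaining members by role differed less. Among secreted products, the angiogenic factor VEGFA stood at 152 CPM against 177 and 141, and the vasodilator precursor ADM at 16.3 against 19.9 and 26.5 CPM. On the scaled log2 CPM of the rule, the difference of VEGFA from replicate 2 was −0.0491, so it was counted below both. The printed CPM carry no TMM factor. Among oxygen sensors, EGLN1 stood at 24.4 against 43.4 and 42.7 CPM. The carbonic anhydrase CA9, a membrane enzyme that helps to set pH, stood at 124 against 195 and 169 CPM. Its relative CA12 lay between the methionine-free libraries at 168 against 179 and 146. The collagen-modifying enzyme PLOD2 stood at 50.5 against 57.8 and 85.5 CPM, and P4HA1 at 60.3 against 68.7 and 72.2. ZNF395 stood at 55.4 against 47.0 and 32.4 CPM. The list thus held a handful of genes far below both libraries and a majority slightly below.

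DDIT4, an inhibitor of mTORC1 induced by hypoxia, glucocorticoids and ATF4, was not on that list but belonged to the amino acid response list, where it was the only member beyond the rule. It stood at 34.2 CPM without tryptophan and niacin against 97.6 and 88.4, and at 214 and 168 CPM on normal food and in the combined omission (log2 fold change −1.53, SE 0.485, adjusted p = 0.553). After length correction it was no longer beyond the rule. The 250 bases before its start are shown with those of EGLN3, since both genes were low in the same library and only 1 holds the core of the hypoxia response element. The windows of BNIP3L, NDUFA4L2 and NDRG1, also beyond the rule, are not shown, so the contrast covers this pair only. Sequences are from the RefSeq promoter table (GRCh38.p14), read 5′ to 3′ on the gene's strand, with the cores ACGTG and GCGTG searched on both strands and set in capitals where found.
DDIT4, chr10:72273674-72273923, plus strand: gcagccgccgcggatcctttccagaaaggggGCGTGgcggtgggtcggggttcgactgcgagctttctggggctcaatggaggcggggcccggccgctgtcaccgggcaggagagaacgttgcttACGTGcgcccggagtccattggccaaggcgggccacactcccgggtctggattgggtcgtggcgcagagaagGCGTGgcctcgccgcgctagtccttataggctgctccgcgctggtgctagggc
EGLN3, chr14:33951075-33951324, minus strand: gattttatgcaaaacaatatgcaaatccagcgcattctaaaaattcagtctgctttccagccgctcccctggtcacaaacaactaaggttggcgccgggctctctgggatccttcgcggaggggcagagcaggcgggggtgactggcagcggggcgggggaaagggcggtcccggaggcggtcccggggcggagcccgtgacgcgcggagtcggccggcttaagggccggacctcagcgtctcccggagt

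The DDIT4 window held 3 cores, beginning 219, 125 and 53 bases before the start, and the EGLN3 window held none of these letters. ACGTG is also the centre of the E-box CACGTG, and GCGTG is also the core bound by the aryl hydrocarbon receptor, so a match does not name a factor. Such a core was found in 11763 of 27305 promoters of the table (43.1%), in 4144 of the 6967 tested genes that matched it (59.5%) and in 17 of the 20 matched hypoxia genes (85%). Among genes beyond the size rule it was found in 22 of 33 matched lower genes (66.7%) and 15 of 25 matched higher genes (60%), both near the share of all tested genes.

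Glycolysis, which turns glucose to pyruvate and lactate and whose enzymes are largely induced by hypoxia, leaned the same way with smaller differences. Of 26 tested members of 30, 0 lay beyond the rule. In all, 17 lay below both methionine-free libraries and 2 above both, against 35.4% and 33.4% of all genes. The medians were −0.25 against replicate 1 and −0.30 against replicate 2. The median over both shrank from −0.25 to −0.13 after length correction. PDK1, a kinase that holds back the oxidation of pyruvate in mitochondria, stood at 31.0 CPM against 66.8 and 57.5. The glucose transporter SLC2A1 stood at 702 CPM against 883 and 804, LDHA, which makes lactate, at 1322 against 1724 and 1860, and PGK1 at 759 against 1015 and 1101. PKM, the last step, lay between the methionine-free libraries at 1904 CPM against 1841 and 2098.

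Genes of the nutrient pathways that the diets name were none of them beyond the rule. Of 23 genes of tryptophan use and of the aryl hydrocarbon receptor, which senses tryptophan metabolites, 12 had enough counts, and 0 were beyond the rule, 5 above both and 6 below both. The median over both was −0.02, and −0.05 after length correction. The tryptophan-degrading enzymes TDO2 and IDO1 had at most 1 count per library, so their levels could not be compared at this depth. WARS, which charges tryptophan onto its transfer RNA, stood at 75.0 CPM against 75.9 and 79.6. MAOA, which degrades serotonin, stood at 42.4 against 88.5 and 72.2 CPM. Of the receptor's targets, NQO1 stood at 205 against 220 and 276 CPM and TIPARP at 27.7 against 44.3 and 42.0, while the receptor AHR itself stood at 55.4 against 43.4 and 39.8.

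Of 28 genes of NAD synthesis and use, 16 were tested, with 0 beyond the rule, 6 above both, 5 below both and a median over both of 0.01 with or without length correction. NAMPT, which salvages nicotinamide, stood at 78.2 CPM against 79.5 and 84.0. NAPRT, which uses niacin, stood at 230 against 231 and 262 CPM, and QPRT, which joins the path from tryptophan, at 31.0 against 50.6 and 44.5. The NAD consumer PARP1 stood at 147 against 125 and 128 CPM. NNMT, where both pathways meet, was too low to be tested, at 8.15 against 10.8 and 13.3 CPM, or 5 to 9 counts.

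Of 17 genes of the methionine cycle and salvage, 12 were tested, with 0 beyond the rule and 5 on each side of both libraries. The median over both was 0.00923, and −0.0104 after length correction. MAT2A, which makes S-adenosylmethionine, stood at 591 CPM without tryptophan and niacin, against 453 and 338 without methionine, 481 on normal food and 516 in the combined omission. AHCY, which clears S-adenosylhomocysteine, stood at 438 against 506 and 653 CPM. MTR, which remakes methionine, stood at 78.2 against 61.4 and 25.1 CPM, and the replicates differed more than the diets. ADI1 of the salvage path stood at 53.8 against 92.1 and 127 CPM. Of 34 methyltransferases, 32 were tested, with 0 beyond the rule. Of the tested members, 19 lay above both and 6 below both, against 33.4% and 35.4% of all genes. The median over both was 0.30 and became 0.10 after length correction.

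The amino acid response, driven by ATF4, went both ways. Of 34 tested members of 41, 0 were higher and 1, DDIT4, was lower beyond the rule, with 13 above both and 12 below both and medians of 0.08 and −0.13. The median over both changed sign with length correction, from −0.04 to 0.09, and gives no direction. The factor ATF4 stood at 332 CPM against 269 and 346. ASNS, which makes asparagine, stood at 99.4 CPM against 47.0 and 63.4, above both, and also above 58.8 on normal food and 62.2 in the combined omission. PHGDH, the entry to serine synthesis, stood at 61.9 against 21.7 and 51.6 CPM, so its difference rested on replicate 1. GDF15, a secreted stress hormone, stood at 32.6 against 43.4 and 73.7 CPM, and DDIT3 (CHOP), a stress-induced factor, lay between the replicates at 17.1 against 15.4 and 28.0. The 35 tested aminoacyl-tRNA synthetases of 37 had 0 beyond the rule, 14 above both and 16 below both, and their median over both likewise went from −0.04 to 0.05.

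Amino acid transporters had medians of 0.16 and 0.35. Of 20 tested of 31, 12 lay above both methionine-free libraries and 5 below both, against 33.4% and 35.4% of all genes. Those above both included SLC7A5, which carries tryptophan and methionine, at 240 CPM against 192 and 139, and its partner SLC3A2 at 197 against 128 and 127. SLC7A1, for cationic amino acids, stood at 404 against 356 and 193, and SLC38A1, for neutral ones, at 316 against 271 and 196 CPM. SLC1A5, the glutamine carrier, lay between them at 438 against 473 and 370. Only SLC3A1, the heavy chain of the cystine transporter, was beyond the rule, on the lower side, at 31.0 against 101 and 60.4 CPM, and not after length correction. The median over both, 0.31, became 0.11 with that correction. Of 41 genes of mTORC1 and amino acid sensing, 32 were tested, with 0 beyond the rule, 8 above both and 15 below both, and a median over both of −0.18 that became −0.08 after length correction. The kinase MTOR stood at 159 against 93.0 and 50.1 CPM, and its substrate EIF4EBP1 at 8.15 against 16.3 and 25.1.

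Immediate early genes, which respond to growth factors through MAP kinases and serum response factor, had 1 member beyond the rule on the higher side and 0 on the lower. Of 30 tested members of 36, 15 lay above both methionine-free libraries and 9 below both, against 33.4% and 35.4% of all genes. The medians were 0.25 and 0.16 (0.32 over both after length correction). EGR1, the zinc finger factor beyond the rule, stood at 122 CPM against 50.6 and 41.3, on 75, 28 and 28 counts (log2 fold change 1.32, SE 0.423, adjusted p = 0.553). Its level was 31.2 CPM on normal food and 34.6 in the combined omission, so the tryptophan/niacin-free library stood above all 4 others. EGR1 remained beyond the rule after length correction. FOSL1, a partner of JUN, stood at 71.7 against 28.9 and 38.3 CPM, and MYC at 246 against 195 and 202. The MAP kinase phosphatases DUSP4 and DUSP5 stood at 34.2 against 12.6 and 17.7, and at 31.0 against 9.03 and 14.7 CPM. On the scaled log2 CPM of the rule they lay 0.71 and 0.80 above replicate 2, less than 1. PHLDA1 stood at 124 against 72.3 and 67.8 CPM. Others went the other way: JUND stood at 52.2 against 125 and 89.9, SPRY2 at 19.6 against 41.6 and 33.9, and BTG2 at 48.9 against 77.7 and 89.9 CPM. FOS itself lay between the replicates at 55.4 against 70.5 and 41.3 CPM.

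The promoter of EGR1 is shown because it holds CArG boxes, the sites bound by serum response factor, in which C and G pairs flank a run of A and T. Capitals mark the boxes.
EGR1, chr5:138465229-138465478, plus strand, GRCh38.p14: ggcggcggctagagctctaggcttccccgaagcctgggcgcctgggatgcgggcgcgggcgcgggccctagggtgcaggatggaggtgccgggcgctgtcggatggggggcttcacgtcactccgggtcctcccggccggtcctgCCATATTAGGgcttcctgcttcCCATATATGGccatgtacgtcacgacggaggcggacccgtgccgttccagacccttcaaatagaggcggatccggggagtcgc
The window held 2 boxes, beginning 105 and 83 bases before the start. At least 1 was held by 312 of all 27305 promoters (1.14%), and among the 26 matched members of the immediate early list 2 did, EGR1 and SRF. SRF, which encodes serum response factor, stood at 63.6 CPM against 50.6 and 50.1.

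HLA class I molecules, which display peptides on the cell surface, and the proteasome proteins that cut those peptides were mostly low without tryptophan and niacin. Proteins that load the peptides were also listed and went both ways. Of the 7 tested, 4 lay below both methionine-free libraries and 3 above both, with medians of −0.063 and −0.105. In the whole list of 22, 18 were tested. Of these, 14 lay below both methionine-free libraries and 4 above both, against 35.4% and 33.4% of all genes. The medians were −0.32 and −0.71, and −0.35 over both after length correction. All 5 tested heavy chains were below both. HLA-B stood at 88.0 CPM against 154 and 154, HLA-C at 121 against 188 and 192 and HLA-E at 249 against 313 and 267. HLA-F, beyond the rule, stood at 13.9 against 32.5 and 32.1 CPM on 8, 18 and 22 counts. The light chain B2M stood at 895 against 1174 and 1368 CPM. PSMB8, a subunit of the immunoproteasome that cuts peptides for display, was also beyond the rule, at 21.2 against 52.4 and 45.7 CPM. The 4 members above both were the transporter subunit TAP2 (94.5 against 83.1 and 69.3 CPM), its partner TAPBP, the trimming enzyme ERAP1 and the factor IRF1 (47.3 against 34.3 and 32.4 CPM). HLA-F and PSMB8 were not beyond the rule after length correction. On normal food B2M stood at 804 and HLA-B at 66.2 CPM, so for these genes the tryptophan/niacin-free library lay on the side of the normal library. The normal library carries another title style, so diet and handling cannot be told apart in that contrast. HLA heavy chains are near-identical and reads with several positions may be split between them, so their single values are uncertain.

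Interferon-stimulated genes did not follow as a group. Of 33 tested members of 45, 0 were beyond the rule, 11 lay above both and 16 below both, with medians of −0.03 and −0.26, and the median over both became 0.00381 after length correction. Below both were the small proteins IFI27 at 129 CPM against 240 and 262, IFI6 at 58.7 against 108 and 131, and IFITM3 at 62.7 against 112 and 191. Above both were PARP14, a long gene, at 293 against 238 and 153, and OAS3, an antiviral sensor, at 209 against 168 and 112 CPM.

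Goblet cell peptides, secreted with mucus by the secretory lineage of the colon, had a low median. Of 11 tested members of 21, 9 lay below both methionine-free libraries and 0 above both, against 35.4% and 33.4% of all genes. The medians were −0.62 and −0.70. The methionine-free replicates themselves differed by a median of 0.345 in these genes. Most of these genes are short, and the median over both, −0.75, became −0.26 after length correction. Against replicates 1 and 2 singly, the length-corrected medians were −0.514 and −0.183. REG4, a lectin of secretory cells and the member beyond the rule, stood at 86.4 CPM against 226 and 267, on 53, 125 and 181 counts (log2 fold change −1.61, SE 0.462, adjusted p = 0.457), and remained beyond the rule after length correction. On normal food it stood at 170 and in the combined omission at 228 CPM. The disulfide isomerase AGR2, which folds mucins, stood at 574 against 927 and 1207, and the trefoil peptide TFF3 at 21.2 against 41.6 and 86.9 CPM. LYZ, lysozyme, stood at 2330 against 2650 and 3400 CPM, and the secretory factor CREB3L1 at 117 against 244 and 174. SPINK1, a trypsin inhibitor, lay between them at 158 against 125 and 162 CPM.

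Mucins, very long genes, differed between the methionine-free libraries more than between diets, with a median of −0.14 against replicate 1 and 0.90 against replicate 2 over 8 tested members of 16. MUC5AC stood at 352 CPM against 260 and 82.5, MUC2 at 106 against 126 and 33.9, and MUC17 at 96.2 against 81.3 and 19.2. No direction between the diets can be read from them. Of 24 tested colonocyte genes of 42, 1 was beyond the rule, the short epithelial gene PHGR1 with 4 counts against 13 and 24, and not after length correction. Here 2 lay above both and 11 below both, and the median over both was −0.09, or −0.06 after length correction. The keratins of the epithelium stood close, KRT8 at 7308 CPM against 6763 and 7867, and the epithelial factor HNF4A at 148 against 172 and 158.

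Genes of ribosomes and of mitochondrial respiration, which have short transcripts, lay low in the tryptophan/niacin-free library. Of 79 cytosolic ribosomal protein genes, 79 lay below both methionine-free libraries, against 35.4% of all genes, and 0 were beyond the rule. The medians were −0.37 and −0.94. The replicates themselves differed by a median of 0.56 in these genes. RPL10 stood at 2368 CPM against 3067 and 4032, and at 2565 CPM on normal food. Length correction brought the median over both from −0.67 to −0.39. Many of these genes have processed copies, so single values are uncertain. Of 77 respiratory chain and ATP synthase genes, all tested, 57 lay below both and 2 above both, against 35.4% and 33.4% of all genes. In all, 1 was beyond the rule, on the lower side. That gene, NDUFA11, a complex I subunit, stood at 34.2 CPM against 77.7 and 133, and at 51.5 CPM on normal food. The medians of −0.16 and −0.77 became −0.02 and −0.27 after length correction. Of 74 tested mitochondrial ribosomal proteins of 75, 46 lay below both and 7 above both, against 35.4% and 33.4% of all genes. Their median over both was −0.41 and became −0.11 after length correction. MRPL54, with 5 counts against 14 and 33, was beyond the rule before length correction only.

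Genes of DNA replication and mitosis, 59 tested of 63, had 0 beyond the rule. Of the tested members, 24 lay above both and 18 below both, against 33.4% and 35.4% of all genes. The medians were 0.16 and −0.03, and 0.19 over both after length correction. The proliferation marker MKI67, a long transcript, stood at 574 CPM against 405 and 156, and the shorter MCM7 at 386 against 322 and 321. Of 9 tested WNT targets of 21, 5 lay above both and 2 below both, and the median over both went from 0.22 to 0.06 with length correction. The WNT inhibitor DKK1 stood at 205 against 132 and 122 CPM, and at 55.1 CPM on normal food. Sterol and fatty acid synthesis (32 tested of 36), p53 targets (17 of 21), endoplasmic reticulum stress (23 of 26), heat shock chaperones (22 of 23), ribosome biogenesis (59 of 60), the constitutive proteasome (31 of 31), transsulfuration and glutathione (17 of 20), serine and one-carbon enzymes (13 of 18) and polyamine enzymes (9 of 10) had 0 members beyond the rule. Autophagy (34 of 40) had 1, BNIP3L, which is also on the hypoxia list.

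**Figure D4:**
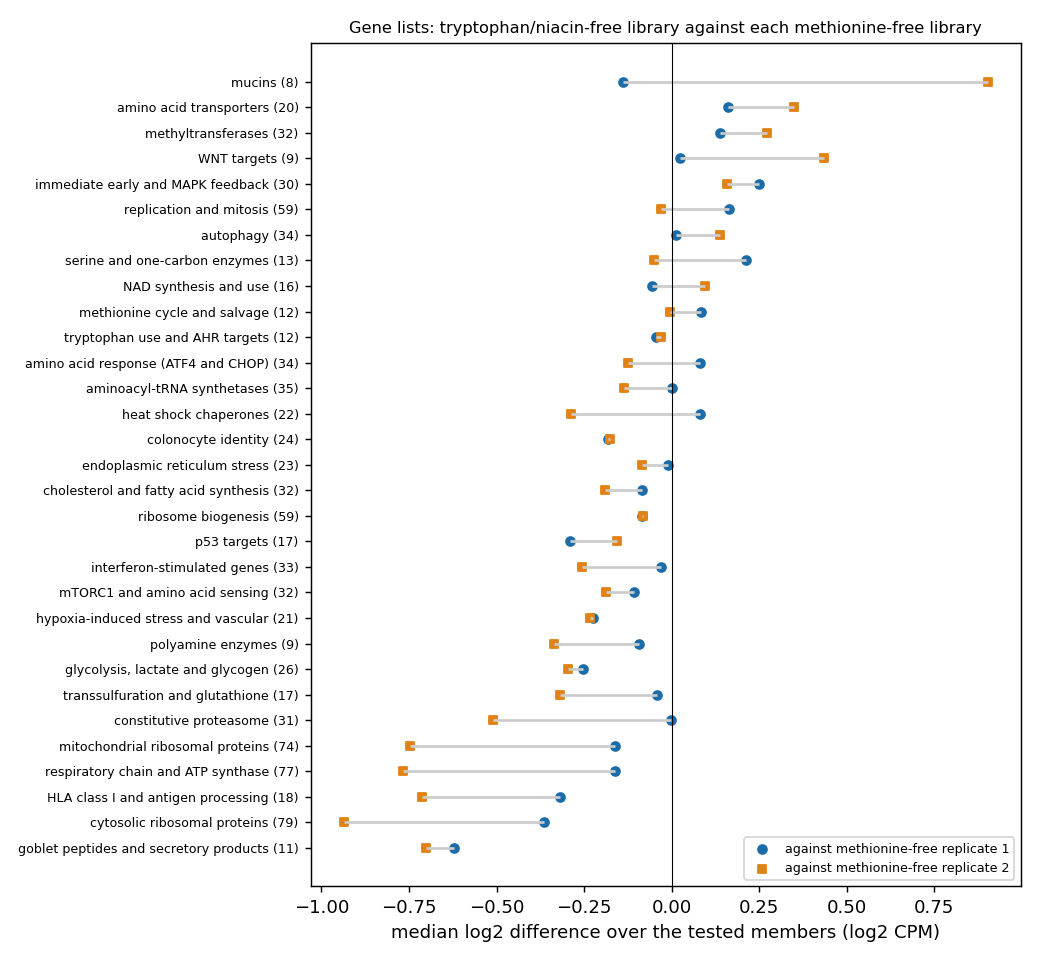
Median log2 difference (log2 CPM) over the tested members of each of 31 gene lists, against methionine-free replicate 1 and replicate 2, with the number of tested members in brackets. Hypoxia, glycolysis and goblet peptide medians lie close together and below 0, while those of mucins and ribosomal proteins stand far apart for the pair.

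Marker genes were summed to see which cells the libraries held. In bulk tissue, fewer cells of a type and less RNA per cell cannot be told apart. All 11 epithelial markers of HT-29 were above 0 in each library and summed to 13800 CPM without tryptophan and niacin against 13700 and 15200. Of 8 fibroblast markers, 5 were at 0 in the 3 libraries (COL1A2, COL3A1, DCN, PDGFRB and THY1), and the sums were 21.2, 18.1 and 17.7 CPM. Of 7 endothelial markers 6 were at 0, and the myeloid markers PTPRC, CSF1R, CD163, S100A8 and S100A9 were at 0, the myeloid sum being nearly all LYZ. These are human symbols, and how mouse reads were handled is not given in the sources used here. Skeletal muscle markers summed to 68.7 CPM without tryptophan and niacin against 2.69 and 3.68. That sum came from 3 near-identical myosin heavy chain genes: MYH2 stood at 25.0 CPM against 0.596 and 0, MYH1 at 22.5 against 0.596 and 0, and MYH4 at 19.6 against 1.5 and 0.737. CKM, DES, MYLPF and TNNT3 were at 0 in the 3 libraries. With no filter on low counts, MYH2 was the only gene that edgeR called (adjusted p = 0.0479 over 15018 genes). The part of these reads in the other results was not tested.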

How the data were processed

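Per the labels' protocols, libraries of HT-29 tumour RNA were made with a kit for stranded mRNA. The authors deposited expected counts per gene symbol for 5 libraries, of which between 15.2% and 17.6% of values above 0 carried decimals. The submitters' processing notes name featureCounts, Subread 2.0.0, TopHat2 2.1.1, SAMtools 0.1.18, Bowtie2 2.2.8 and the hg19 build. Not given in the sources used here are the annotation, the strand setting, the handling of reads with several positions and any separation of mouse reads, so overlapping, antisense and near-identical genes are uncertain. Groups came from the treatment labels.

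Counts were rounded and tested with edgeR 4.0.16 (quasi-likelihood, TMM factors 1.05 for the tryptophan/niacin-free library and 1.02 and 0.939 for the methionine-free replicates, biological coefficient of variation 0.209, 1 residual degree of freedom) in R 4.3.3, with DESeq2 1.42.0 and limma 3.58.1 as alternatives. Differences are TMM-scaled log2 CPM with a prior count of 2, and printed CPM are counts scaled to a library total of 1000000. Each SE is the absolute log2 fold change divided by the square root of the test's F statistic. It is not a spread measured among tryptophan/niacin-free libraries, since the lone library has none. A value of 0 allows up to 3 counts, or 4.42 to 5.42 CPM. Intervals and floors cover counting error only, because PCR copies cannot be recognised. Transcript lengths (longest transcript per symbol) matched 8874 genes (99.1%). Scripts were checked on simulated data.

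The comparison, 31 pathway lists and 8 marker lists were chosen with earlier results of these data known, and 1 list member matched no symbol. Named genes were up to 12 per direction beyond the size rule, those with the 6 smallest p-values per direction, and of each list the members beyond the rule and up to 4 with the highest counts. List members named beyond that were chosen after their values were seen, as examples. Some genes that this rule covers are not reported here.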

Additional observations from a re-analysis of the deposited data

How the results depend on the processing

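No paired analysis was possible, since the treatment labels pair no libraries across diets and the tryptophan/niacin-free food had 1 library. With no filter on low counts edgeR called 1 higher gene, MYH2, and the other fits called 0. The count of genes beyond the size rule was 31 higher and 52 lower, and it moved to 164 and 149 at a fold of 1.5, to 0 and 7 at a fold of 3, and to 15 and 24 with a 99% interval. With total-count scaling 57 were higher. Without methionine-free replicate 2 there were 106 higher and 120 lower, and without replicate 1 there were 545 and 386. The hypoxia median of −0.23 became −0.14 with total-count scaling, −0.21 with a prior count of 5 and −0.32 with length correction. The goblet peptide median of −0.75 became −0.67 with total-count scaling, −0.84 and −0.62 with prior counts of 0.5 and 5, −0.26 with length correction, and −0.62 without replicate 2 and −0.70 without replicate 1. The log2 fold change of NDRG1 reversed to 0.66 in the additive model over 5 libraries, and 467 other values of named genes kept their direction and side of the threshold. No fit called any of these genes, which were chosen by their differences in the same libraries, so the agreement is no independent support. Over 31 lists and 7 alternatives each, 197 of 217 medians kept their sign and 20 did not. Of these, 15 belonged to 8 lists whose median lay within 0.1 of 0, amino acid response and heat shock chaperones among them. The other 5 were replication and mitosis to −0.0316 without replicate 1 (0.164 without replicate 2), mucins to −0.140 without replicate 2 (0.904 without replicate 1) and to −0.0251 with length correction, and polyamine enzymes to 0.0280 and interferon-stimulated genes to 0.0038 with length correction. The cause was not tested. Depth limits genes under about 10 counts, where the interval of a ratio is wide.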
